A study of Mus musculus with 4 samples.

Results

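Chemokines are small secreted proteins that steer moving cells, and chemokine receptors are the membrane proteins that read them. The genes described here are the rows of the deposited expression table whose symbol begins with Ccl, Cxcl, Cx3cl, Xcl, Ccr or Cxcr followed by a number and at most 1 letter, without Ccr7 and Cxcr2. Of the 24043 rows of the table the rule took 53, and 52 of these are described. They comprise 39 ligands and 13 receptors. Of these, 29 ligands and 10 receptors reached 1 FPKM in at least 2 of the 4 libraries and were tested. FPKM is a read level scaled for transcript length and for the size of the library.

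Ligands are grouped by the spacing of their first cysteines into the CC, CXC, CX3C and C families, which the names Ccl, Cxcl, Cx3cl and Xcl repeat. Receptors belong to the class of membrane-spanning receptors that couples to inhibitory G proteins, and binding of a ligand starts directed migration, after which kinases and arrestins silence the receptor. In mammary tumors these molecules are known for bringing in monocytes, neutrophils and lymphocytes, while epithelium, fibroblasts and leukocytes can all make ligands. Receptors are found mostly on leukocytes.

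RNA was sequenced from cells of mammary tumors of mice labelled female and carrying MMTV-PyMT, a transgene that expresses the polyoma middle T antigen from a promoter active in mammary epithelium. All mice also carried R26Y, a Rosa26 reporter whose YFP is switched on by Cre, and all received Ad-K8-Cre, an adenovirus in which the Krt8 promoter of luminal cells drives Cre, by injection into the ducts. YFP+ cells were sorted 2 to 3 months later. The group titled wild-type was Lsd1+/+ (2 libraries), and the group titled knockout was meant to carry the conditional Lsd1L/L alleles, whose recombination removes LSD1, a histone demethylase encoded by Kdm1a (2 libraries). For the latter group the genotype label says knockout but the tissue label says Lsd1+/+, so they are called knockout-labelled libraries. The age of the mice was not given, nor whether each library came from its own mouse, so the spread behind each p-value is that of these libraries alone and may be technical.

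Kdm1a stood at 52.5 and 22.9 FPKM in wild-type, compared with 20.2 and 22.8 FPKM in the knockout-labelled libraries. Its log2 difference of -0.67 (SE 0.46, n = 2 and 2) did not pass (limma, adjusted p = 0.338), and leaving out the second wild-type library gave -1.25, but leaving out the first gave -0.087 (adjusted p = 0.572). Xist, the transcript that silences an X chromosome in female cells, was at 3.31 and 3.93 FPKM in wild-type, while it was listed at 0 in the first knockout-labelled library and was at 0.00965 FPKM in the second (log2 difference -2.20, SE 0.18; limma, adjusted p = 0.0240). The Y-linked genes Ddx3y, Eif2s3y, Kdm5d and Uty were listed at 0 in every library. The near absence of Xist in the knockout-labelled libraries goes against their sex label, while these Y-linked genes give no sign of male cells, and the cause was not tested. The wild-type libraries were less alike than the knockout-labelled ones (r = 0.847 and 0.983 across 11138 genes on the log2(FPKM + 1) scale; genes are not independent replicates). Luminal epithelial markers (Krt8, Krt18, Krt19, Epcam, Cldn3 and Cldn4) were detected everywhere, with a summed level of 11549 and 2586 FPKM in wild-type and 689 and 707 FPKM in the knockout-labelled libraries. The cells had been sorted for YFP; T cell markers (Cd3d, Cd3e, Cd3g, Cd2, Cd5 and Lck) summed to 11.5 and 40.6 FPKM in wild-type and to 1299 and 1230 FPKM in the knockout-labelled libraries. Macrophage markers (C1qa, C1qb, C1qc, Emr1, Csf1r, Mrc1 and Cd68) summed to 166 and 4525 FPKM in wild-type and to 218 and 207 FPKM in the knockout-labelled libraries. The first wild-type library was thus poorest in leukocyte markers, the second stood apart in macrophage markers, and the knockout-labelled ones in lymphocyte markers. In bulk RNA, fewer cells of a type and less RNA per cell cannot be told apart.

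Receptors were higher in the knockout-labelled libraries. Of the 10 tested receptors 6 rose, 0 fell and 4 did not pass (limma on log2(FPKM + 1), adjusted p under 0.05 over all genes). At an unadjusted p under 0.05, 9 were higher and 0 lower, beside 2411 higher and 1984 lower of all 11138 genes tested. Over all genes tested, 9.51% rose and 6.99% fell, 16.5% in either direction. The receptor median log2 difference was 2.36, against 0.08 over all genes. All 10 had a positive difference, and in 9 of 10 both knockout-labelled libraries lay above both wild-type libraries, a pattern found in 39.3% of all genes tested. Ccr4, Ccr8, Ccr9 and Cxcr5 were under 1 FPKM in both wild-type libraries and entered the test through the knockout-labelled libraries alone. For these genes the filter itself fixed the positive sign and the lack of overlap. Without either of the knockout-labelled libraries 0 receptors passed (limma), with 6 at an unadjusted p under 0.05 in each case, and with no filter on low values 0 passed, with 9 at an unadjusted p under 0.05. Where a single wild-type library was kept, the spread came from the knockout-labelled pair alone, so only the differences are given for these fits. All 10 differences were positive when the first was kept, and all but that of Ccr1 when the second was. The log2 difference of Ccr1 was 2.00 against the first and -1.29 against the second. The receptor median ran from 1.51 to 3.33 when single libraries were left out.

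**Figure D1:**
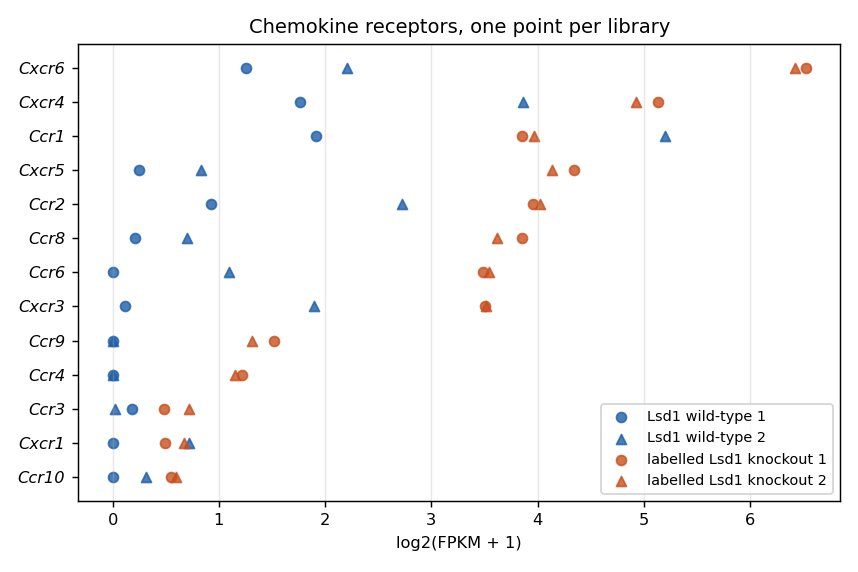
Level of each of the 13 receptors as log2(FPKM + 1) on the horizontal axis, 1 point per library, with colour for the group and shape for the replicate number. Cxcr6 in the knockout-labelled libraries (91.1 and 84.9 FPKM) is the highest receptor level in the plot, while Ccr1 is highest in the second wild-type library.

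Cxcr6, the receptor for Cxcl16 on activated and tissue-resident T cells and NK T cells, was at 1.39 and 3.62 FPKM in wild-type, compared with 91.1 and 84.9 FPKM in the knockout-labelled libraries. The rise was 4.74 in log2(FPKM + 1) (SE 0.39; limma, adjusted p = 0.0240). Both knockout-labelled values lay far above both wild-type values. Cxcr6 made up 43.2% and 42.9% of the summed receptor FPKM there, compared with 17.3% and 5.60% in wild-type. Ccr8, the receptor for Ccl1 that is prominent on regulatory T cells in tumors, was at 0.159 and 0.624 FPKM in wild-type, compared with 13.5 and 11.3 FPKM in the knockout-labelled libraries. Its rise was 3.28 (SE 0.28; limma, adjusted p = 0.0243), and the groups did not overlap. Relative to 100 FPKM of the summed T cell markers, Cxcr6 was at 12.1 and 8.92 FPKM in wild-type, compared with 7.01 and 6.90 FPKM in the knockout-labelled libraries, and Ccr8 at 1.38 and 1.54 versus 1.04 and 0.919 FPKM. On this scale neither receptor was higher in the knockout-labelled libraries. These ratios were computed after the levels had been seen, and those of Ccr8 in wild-type rest on low levels and are uncertain.

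Cxcr5 guides B cells and follicular helper T cells into follicles. It was at 0.188 and 0.776 FPKM in wild-type, compared with 19.2 and 16.6 FPKM in the knockout-labelled libraries, a rise of 3.70 (SE 0.30; limma, adjusted p = 0.0240). Ccr6, the Ccl20 receptor of B cells and Th17 cells, was listed at 0 in the first wild-type library, was at 1.14 FPKM in the second, and reached 10.2 and 10.6 FPKM in the knockout-labelled libraries. Its rise was 2.97 (SE 0.44; limma, adjusted p = 0.0346), and the call ended with a pseudocount of 0.1 (adjusted p = 0.0858). Both receptors were low in each wild-type library. B cell markers (Cd79a, Cd79b, Ms4a1, Pax5 and Blk) summed to 3.20 and 17.1 FPKM in wild-type and to 432 and 416 FPKM in the knockout-labelled libraries. Per 100 FPKM of these markers, Cxcr5 stood at 5.87 and 4.53 FPKM in wild-type, compared with 4.45 and 3.997 FPKM in the knockout-labelled libraries. Ccr6 did not lie together on this scale, at 0 and 6.65 FPKM per 100 in wild-type versus 2.37 and 2.56 FPKM.

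Ccr4 and Ccr9 had a listed value of 0 in each wild-type library. Ccr4, the receptor for Ccl17 and Ccl22 on Th2, regulatory and skin-homing T cells, was at 1.33 and 1.22 FPKM in the knockout-labelled libraries (log2 difference 1.18, SE 0.13; limma, adjusted p = 0.0265). Ccr9, the gut-homing receptor for Ccl25, was at 1.86 and 1.49 FPKM there (log2 difference 1.42, SE 0.15; limma, adjusted p = 0.0253). Both rose, but from a level of 0 the size of the fitted difference is set by the pseudocount: with 0.1 in place of 1 it was 3.78 for Ccr4 and 4.14 for Ccr9. The call of Ccr4 ended with the replicate number as a block (adjusted p = 0.0516).

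The other 4 tested receptors varied more between the wild-type libraries. Cxcr3, which reads the interferon-induced ligands Cxcl9 and Cxcl10 on effector T and NK cells, was at 0.0808 and 2.73 FPKM in wild-type, compared with 10.4 and 10.5 FPKM in the knockout-labelled libraries (log2 difference 2.51, SE 0.67; limma, adjusted p = 0.0786). Cxcr4, the Cxcl12 receptor of most leukocytes and of many tumor cells, was at 2.39 and 13.5 FPKM in wild-type versus 34.2 and 29.5 FPKM (adjusted p = 0.123). Ccr2, the receptor that brings in inflammatory monocytes, was at 0.898 and 5.61 FPKM in wild-type versus 14.6 and 15.3 FPKM (adjusted p = 0.102). In these 3 the groups did not overlap, although the test was not passed. Per 100 FPKM of T cell markers, Cxcr3 was at 0.702 and 6.73 FPKM in wild-type versus 0.798 and 0.850 FPKM.

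Ccr1, a receptor of macrophages and neutrophils for Ccl3 and Ccl5, followed another order. Ccr1 was at 2.76 and 35.7 FPKM in wild-type, compared with 13.4 and 14.6 FPKM in the knockout-labelled libraries (log2 difference 0.35, SE 1.19; limma, adjusted p = 0.849). Both knockout-labelled libraries lay between the wild-type libraries, and without the first wild-type library the difference turned to -1.29. The untested receptors Ccr3, Ccr10 and Cxcr1 stayed under 0.65 FPKM in every library.

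The upstream sequence of 4 genes that rose together and have a single listed start is shown, since they are the receptors and ligands of largest fitted difference for which such an entry was found. The 250 bases before the transcription start come from RefSeq on GRCm38.p6, in the direction of the gene; the expression values were made on mm9 and no coordinates were carried between the builds. Capitals mark matches, on either strand, to TATAAA (the TATA box), TGTGGT (the Runx core), TGANTCA (AP-1), TTCNNNGAA (Stat) or the NF-kB consensus.
Cxcr6, chr9:123806227-123806476, plus strand: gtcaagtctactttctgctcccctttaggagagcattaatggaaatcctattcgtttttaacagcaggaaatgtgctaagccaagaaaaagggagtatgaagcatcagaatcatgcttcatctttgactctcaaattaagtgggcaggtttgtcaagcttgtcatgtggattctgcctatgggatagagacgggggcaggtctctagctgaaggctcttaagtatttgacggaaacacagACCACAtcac
Xcl1, chr1:164935523-164935772, minus strand: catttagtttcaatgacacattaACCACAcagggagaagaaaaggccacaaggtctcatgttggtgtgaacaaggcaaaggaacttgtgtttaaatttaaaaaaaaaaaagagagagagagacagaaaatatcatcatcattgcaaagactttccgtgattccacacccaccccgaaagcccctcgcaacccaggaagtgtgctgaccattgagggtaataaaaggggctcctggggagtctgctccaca
Ccr8, chr9:120091883-120092132, plus strand: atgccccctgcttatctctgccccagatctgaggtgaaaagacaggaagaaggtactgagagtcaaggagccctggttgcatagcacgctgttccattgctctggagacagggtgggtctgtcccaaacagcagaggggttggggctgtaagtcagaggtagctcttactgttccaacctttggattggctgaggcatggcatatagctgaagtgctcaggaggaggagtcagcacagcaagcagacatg
Ccl1, chr11:82179813-82180062, minus strand: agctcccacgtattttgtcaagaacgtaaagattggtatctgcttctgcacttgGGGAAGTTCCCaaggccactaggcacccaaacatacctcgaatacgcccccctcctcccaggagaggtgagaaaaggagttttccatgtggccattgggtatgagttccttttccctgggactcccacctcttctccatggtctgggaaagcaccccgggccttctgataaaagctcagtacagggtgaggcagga

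Cxcr6 and Xcl1 each held 1 Runx match, as the reverse complement, and Ccl1 held 2 overlapping matches to the NF-kB consensus. None of the 5 motifs was found in the Ccr8 window. Of all 32851 such windows 14.0% held the Runx letters and 7.25% the NF-kB consensus. Among the 38 members with an entry, 8 had a Runx match in at least 1 of their windows and 10 an NF-kB match, among them the neutrophil-attracting ligands Cxcl1, Cxcl2 and Cxcl3. A gene may have several windows, so these gene counts cannot be compared with the shares of single windows. A match describes letters only.

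Ligands moved in both directions, and their count of calls was near that of all genes. Of the 29 tested ligands 3 rose, 1 fell and 25 did not pass (limma, adjusted p under 0.05 over all genes). Without either knockout-labelled library 0 ligands passed, with 3 higher and 1 lower at an unadjusted p under 0.05 in each case. With no filter on low values 0 passed, with 3 higher and 6 lower at that unadjusted level. The shares of 10.3% higher and 3.45% lower stand beside 9.51% and 6.99% over all genes. In 11 of 29 ligands both knockout-labelled libraries lay below both wild-type libraries, a pattern found in 32.1% of all genes tested. In 4 of 29 (13.8%) both lay above both wild-type libraries, which was so for 39.3% of all genes tested. The ligand median log2 difference was -0.71, with 8 higher and 21 lower, but it was 0.20 without the second wild-type library. In 11 of 29 ligands both knockout-labelled libraries lay between the wild-type libraries, which was so for 17.5% of all genes tested.

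**Figure D2:**
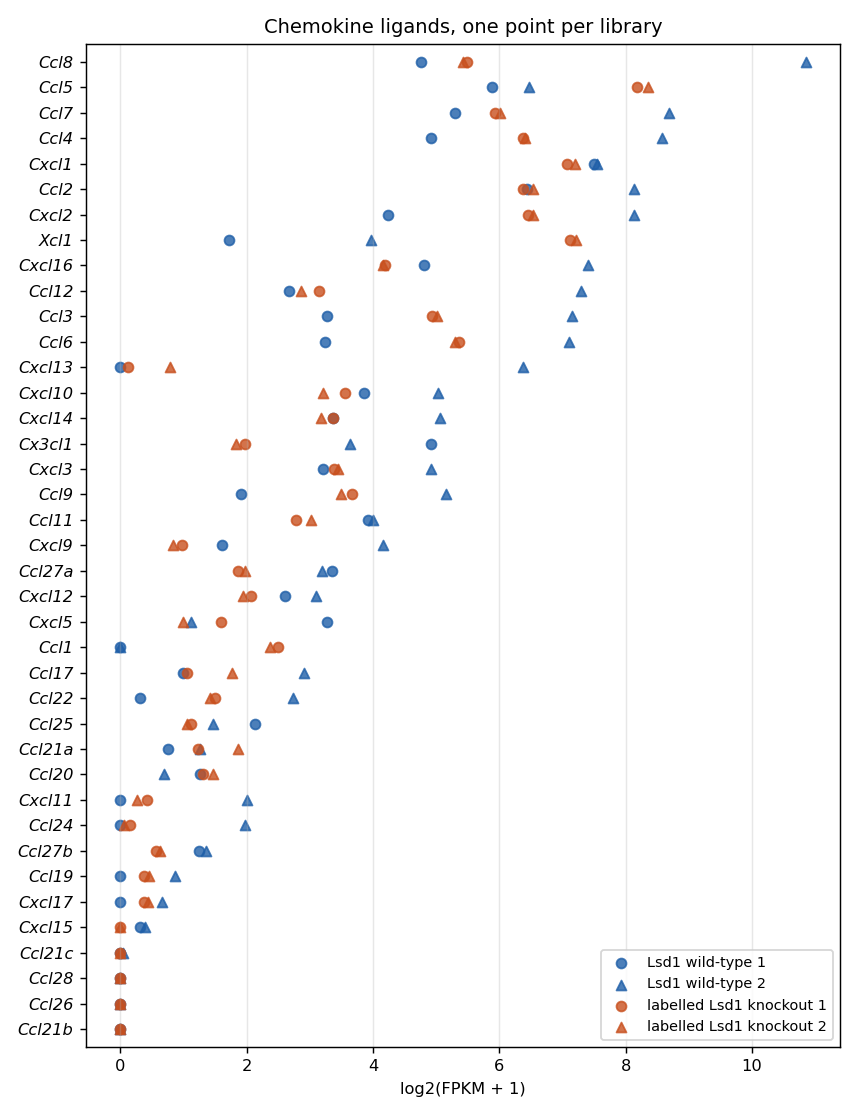
Level of each of the 39 ligands as log2(FPKM + 1), 1 point per library, coloured by group with the replicate number as shape. Ccl5 and Xcl1 separate the groups at high level, while Ccl8, Ccl7, Ccl4 and Cxcl13 are set apart by the second wild-type library alone.

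The 3 ligands that rose are known from activated T or NK cells, but which cells made them here was not tested. Ccl5, which attracts T cells and monocytes, was at 58.1 and 87.4 FPKM in wild-type, compared with 288 and 326 FPKM in the knockout-labelled libraries (mean 72.8 ± 20.7 and 307 ± 27.0, SD, n = 2 each). It rose by 2.09 (SE 0.26; limma, adjusted p = 0.0295), with no overlap of the groups. Xcl1, lymphotactin, the C family ligand that draws cross-presenting dendritic cells, was at 2.30 and 14.7 FPKM in wild-type, compared with 138 and 148 FPKM in the knockout-labelled libraries. Its rise of 4.32 (SE 0.82; limma, adjusted p = 0.0460) did not pass with a pseudocount of 0.1 (adjusted p = 0.0582) or after quantile normalization (adjusted p = 0.0501). Ccl1, a ligand of Ccr8, was listed at 0 in both wild-type libraries and was at 4.62 and 4.16 FPKM in the knockout-labelled libraries (log2 difference 2.43, SE 0.18; limma, adjusted p = 0.0240). With a pseudocount of 0.1 that difference was 5.49. Ccl1 entered the test through the knockout-labelled libraries alone, so the filter fixed the sign of its difference.

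NK cell markers (Klrd1, Klrb1c, Ncr1, Nkg7, Gzma and Prf1) moved with these ligands, at 1.64 and 15.8 FPKM summed in wild-type and 315 and 301 FPKM in the knockout-labelled libraries. All 6 of them rose, as did all 6 T cell and all 5 B cell markers. Per 100 FPKM of the NK cell markers, Xcl1 stood at 140 and 92.9 FPKM in wild-type, compared with 43.9 and 49.3 FPKM in the knockout-labelled libraries. Ccl5 stood at 3535 and 554 FPKM per 100 versus 91.6 and 108 FPKM. On this scale both ligands were lower in the knockout-labelled libraries. In the first wild-type library Gzma, Ncr1 and Prf1 were listed at 0, so the ratios to its marker sum of 1.64 FPKM are uncertain. The part of these cells in the difference was not tested.

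Ccl27a was the ligand that fell. This epithelial chemokine, known from skin keratinocytes, attracts Ccr10-bearing T cells. It was at 9.18 and 8.11 FPKM in wild-type, compared with 2.63 and 2.92 FPKM in the knockout-labelled libraries (log2 difference -1.35, SE 0.22; limma, adjusted p = 0.0365), and the groups did not overlap. The call ended with the replicate number as a block (adjusted p = 0.0802). The luminal markers were also lower, with sums of 11549 and 2586 FPKM versus 689 and 707 FPKM. Per 100 FPKM of these markers Ccl27a was higher in both knockout-labelled libraries, at 0.0795 and 0.314 FPKM in wild-type versus 0.382 and 0.413 FPKM, and the part of luminal cells in its fall was not tested. Its near-identical copy Ccl27b was at 1.38 and 1.57 FPKM in wild-type versus 0.471 and 0.548 FPKM (adjusted p = 0.0588). Reads of the copies may have been divided between them, so each value is uncertain.

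Cx3cl1, fractalkine, is anchored in the membrane of epithelial and endothelial cells and binds Cx3cr1 on monocytes. It was at 29.1 and 11.4 FPKM in wild-type, compared with 2.93 and 2.55 FPKM in the knockout-labelled libraries, a log2 difference of -2.37 (SE 0.50; limma, adjusted p = 0.0539). The groups did not overlap, and with a filter at 5 FPKM the gene passed (adjusted p = 0.0481). Per 100 FPKM of the luminal markers it stood at 0.252 and 0.442 FPKM in wild-type, compared with 0.425 and 0.360 FPKM in the knockout-labelled libraries, which overlap. Cxcl16, the other ligand made as a membrane protein, was at 27.1 and 168 FPKM in wild-type, compared with 17.3 and 16.9 FPKM in the knockout-labelled libraries (log2 difference -1.93, SE 0.95; limma, adjusted p = 0.214). Cxcl16 was thus lowest in the libraries where its receptor Cxcr6 was highest, but between the wild-type libraries both genes were higher in the second.

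**Figure D3:**
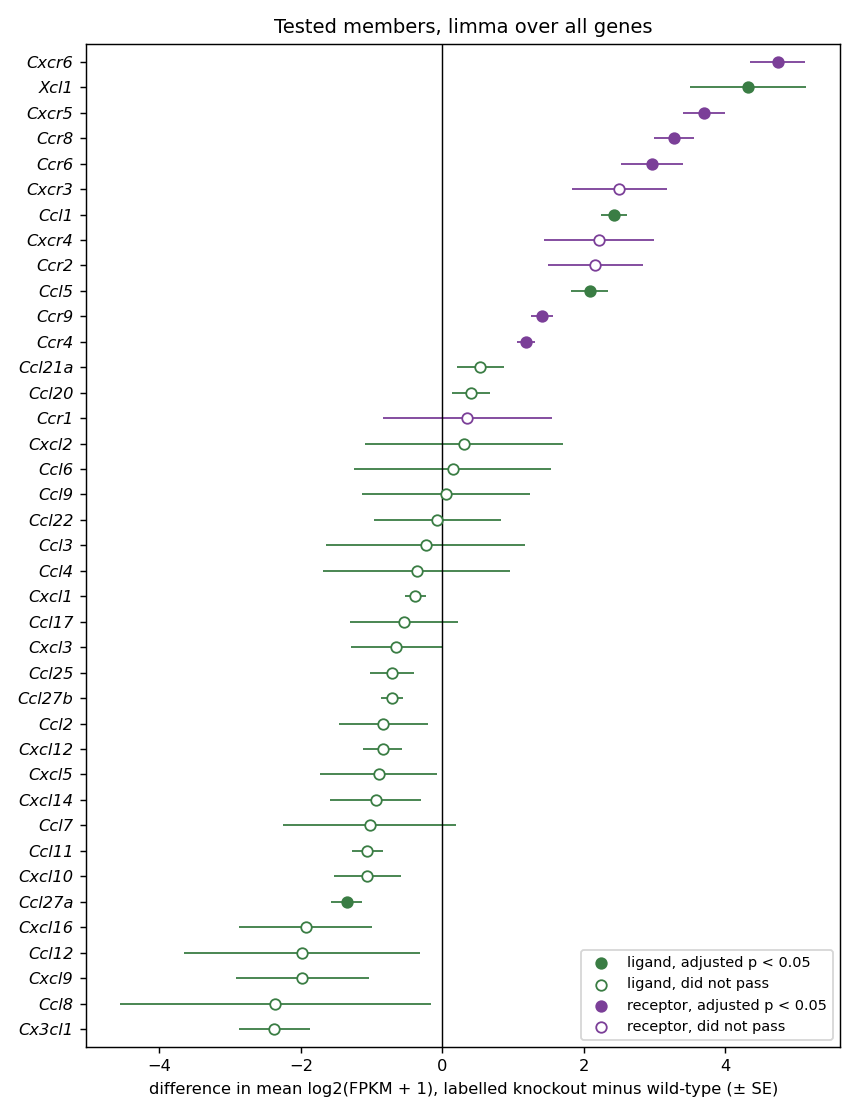
Difference in mean log2(FPKM + 1), labelled knockout minus wild-type, for the 39 tested members, with the limma standard error as the bar and filled symbols for an adjusted p under 0.05. The 6 filled receptors lie at 1.18 to 4.74, and the widest bars belong to ligands such as Ccl8 and Ccl12 that differ most between the wild-type libraries.

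Monocyte-attracting CC ligands stood highest in the second wild-type library. Ccl8, a ligand of monocyte receptors, was at 26.1 FPKM in one wild-type library, the first, and at 1857 FPKM in the second, a ratio of 71.2, and at 43.7 and 41.8 FPKM in the knockout-labelled libraries. Ccl7 was at 38.4 and 413 FPKM in wild-type, compared with 59.7 and 63.7 FPKM in the knockout-labelled libraries. Ccl12 was at 5.39 and 156 versus 7.87 and 6.30 FPKM. For Ccl8, Ccl7 and Ccl12 both knockout-labelled libraries lay between the wild-type libraries. Ccl2, the main ligand of Ccr2, was at 85.3 and 279 FPKM in wild-type versus 81.6 and 91.4 FPKM. None of the 4 passed (limma, adjusted p from 0.381 to 0.573), with Ccl8 at a log2 difference of -2.36 and a standard error of 2.19. Without the second wild-type library the difference of Ccl8 was 0.69.

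Macrophage inflammatory proteins showed the same order of libraries. Ccl3 was at 8.67 and 142 FPKM in wild-type, compared with 29.7 and 31.4 FPKM in the knockout-labelled libraries, and Ccl4 at 29.2 and 381 versus 81.7 and 83.6 FPKM. Ccl6 was at 8.47 and 137 versus 39.9 and 38.2 FPKM, and Ccl9 at 2.74 and 34.6 versus 11.6 and 10.3 FPKM. In each of these 4 the knockout-labelled libraries lay above the first wild-type library and below the second, and none passed (adjusted p from 0.862 to 0.980). Between the wild-type libraries, each with no replicate of its own, 9 of 28 tested ligands with a value in the first were at least 10-fold higher in the second, as were 2 of 7 receptors (Ccr1 and Cxcr3); over all genes the share was 4.04%.

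Per 100 FPKM of the summed macrophage markers, Ccl12 was at 3.24 and 3.45 FPKM in wild-type, compared with 3.62 and 3.04 FPKM in the knockout-labelled libraries. On that scale the second wild-type library no longer stood apart for Ccl12. For Ccl8 it still did, with 15.7 and 41.0 FPKM per 100 in wild-type and 20.1 and 20.2 FPKM in the knockout-labelled libraries. The second wild-type library was lowest for Ccl7 (23.1 and 9.13 versus 27.5 and 30.8 FPKM) and Ccl2 (51.3 and 6.17 versus 37.5 and 44.2 FPKM). It was also lowest for Ccl3, Ccl4, Ccl6, Ccl9, Cxcl2, Cxcl16 and Ccr1. For Ccl3 the knockout-labelled libraries were highest, at 5.21 and 3.13 FPKM per 100 in wild-type and 13.7 and 15.2 FPKM in the knockout-labelled libraries, as they were for Ccl4 (17.5 and 8.42 versus 37.6 and 40.4 FPKM) and Ccr1 (1.66 and 0.789 versus 6.17 and 7.07 FPKM). The part of macrophages, T cells or other cells in these levels was not tested.

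**Figure D4:**
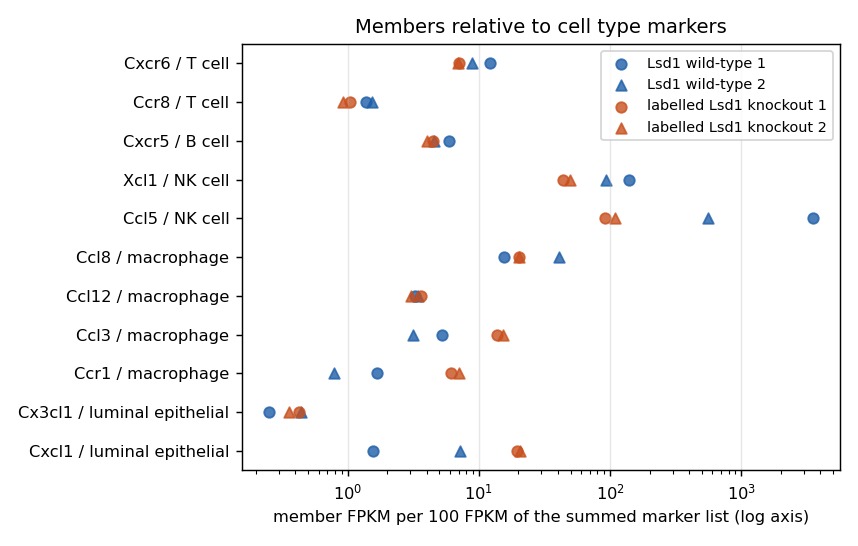
FPKM of 11 member and marker-list combinations per 100 FPKM of the summed marker list named after the slash, on a log axis, 1 point per library. Cxcr6, Ccr8 and Cxcr5 lie close together in all 4 libraries, whereas Ccl5 relative to NK cell markers runs from 91.6 to 3535 FPKM per 100. In wild-type these ratios rest on low levels, such as 0.159 and 0.624 FPKM for Ccr8, so they are uncertain. The NK cell markers summed to 1.64 FPKM in the first wild-type library.

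None of the neutrophil-attracting CXC ligands passed. Cxcl1, the most abundant ligand of the first wild-type library, was at 180 and 185 FPKM in wild-type, compared with 134 and 146 FPKM in the knockout-labelled libraries (log2 difference -0.38, SE 0.15, 95% interval -0.80 to 0.04; limma, adjusted p = 0.148). Both knockout-labelled values lay below both wild-type values. Cxcl2 was at 17.9 and 279 FPKM in wild-type, compared with 86.4 and 91.6 FPKM in the knockout-labelled libraries (adjusted p = 0.891). Cxcl3 was at 8.26 and 29.3 versus 9.39 and 9.93 FPKM (adjusted p = 0.494), and Cxcl5 at 8.62 and 1.16 versus 2.02 and 0.989 FPKM (adjusted p = 0.465). Neutrophil markers (Camp, Ngp, Mmp8, S100a8, S100a9, Csf3r and Retnlg) summed to 277 and 554 FPKM in wild-type and to 1165 and 1255 FPKM in the knockout-labelled libraries. S100a8 (199 and 318 versus 615 and 643 FPKM) and S100a9 (54.8 and 217 versus 428 and 484 FPKM) held most of these sums. All but Csf3r were higher in both knockout-labelled libraries than in either wild-type library. Between the wild-type libraries Camp, Ngp and Retnlg were lower in the second. Cxcl15 was at 0.236 and 0.308 FPKM in the wild-type group and listed at 0 in the knockout-labelled libraries.

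The interferon-inducible ligands Cxcl9 and Cxcl10 were lower in the knockout-labelled libraries, where their receptor Cxcr3 was higher, without passing. Between the wild-type libraries these ligands and Cxcr3 were all higher in the second. Cxcl9 was at 2.06 and 16.9 FPKM in wild-type, compared with 0.975 and 0.775 FPKM in the knockout-labelled libraries (log2 difference -1.98, SE 0.94; limma, adjusted p = 0.204). Cxcl10 was at 13.5 and 31.5 versus 10.8 and 8.24 FPKM (log2 difference -1.06, SE 0.47; limma, adjusted p = 0.186). The groups did not overlap in either gene. Cxcl11, not tested, was at 3.01 FPKM in the second wild-type library and at most 0.333 FPKM elsewhere.

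Homeostatic ligands, made by stroma and epithelium without inflammation, were mostly low. Cxcl12, the stromal ligand of Cxcr4, was at 5.08 and 7.52 FPKM in wild-type, compared with 3.20 and 2.84 FPKM in the knockout-labelled libraries (adjusted p = 0.108). Cxcl14, an epithelial and fibroblast chemokine, was at 9.30 and 32.4 versus 9.26 and 8.07 FPKM (adjusted p = 0.336). Ccl25, the thymic and gut ligand of Ccr9, was at 3.41 and 1.76 versus 1.18 and 1.09 FPKM (adjusted p = 0.176). All 3 were lower in both knockout-labelled libraries than in either wild-type library. Fibroblast markers (Col1a1, Col1a2, Col3a1, Pdgfra, Dcn and Lum) summed to 172 and 467 FPKM in wild-type and to 164 and 160 FPKM in the knockout-labelled libraries.

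Ligands that organise lymphoid tissue were low in the knockout-labelled libraries. Cxcl13, the follicular ligand of Cxcr5, was listed at 0 in the first wild-type library, stood at 82.3 FPKM in the second and was at 0.0874 and 0.730 FPKM in the knockout-labelled libraries. It was not tested, since 1 library alone passed 1 FPKM. Ccl19, the T zone chemokine, reached at most 0.829 FPKM, in the second wild-type library. Ccl21a was at 0.694 and 1.38 FPKM in wild-type, compared with 1.35 and 2.64 FPKM in the knockout-labelled libraries (adjusted p = 0.301). The copies Ccl21b and Ccl21c were listed at 0 or under 0.03 FPKM, and reads of the Ccl21 copies may have been divided between them. Of the lymph node stroma and high endothelial venule markers, Chst4 was listed at 0 in every library, and Madcam1 was at 0.0311 and 0.901 FPKM in the wild-type group and listed at 0 in both knockout-labelled libraries. Il7 (0.566 and 0.221 versus 0.110 and 0.0171 FPKM) and Pdpn (1.66 and 5.67 versus 1.39 and 1.02 FPKM) were lower there too, while Fut7 was higher (0 and 0.294 versus 0.492 and 0.697 FPKM). Cr2, of B cells and follicular dendritic cells, was at 0 and 0.0152 FPKM in wild-type, compared with 6.31 and 7.39 FPKM in the knockout-labelled libraries.

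Type 2 and dendritic cell chemokines gave no call. Ccl11, eotaxin, which recruits eosinophils through Ccr3, came closest. It was at 14.2 and 14.9 FPKM in wild-type, compared with 5.88 and 7.11 FPKM in the knockout-labelled libraries (log2 difference -1.06, SE 0.22; limma, adjusted p = 0.0502). The groups did not overlap, and Ccl11 passed with a filter at 5 FPKM (adjusted p = 0.0434) and after quantile normalization (adjusted p = 0.0449). Ccl17 was at 0.983 and 6.53 FPKM in wild-type, compared with 1.09 and 2.40 FPKM in the knockout-labelled libraries, and Ccl22 at 0.235 and 5.68 versus 1.82 and 1.67 FPKM. Ccl20 was at 1.40 and 0.615 versus 1.48 and 1.76 FPKM. The untested Ccl24 reached 2.95 FPKM in the second wild-type library, Cxcl17 stayed at or under 0.577 FPKM, and Ccl26 and Ccl28 were listed at 0 throughout.

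The make-up of the ligand transcripts differed between libraries. The summed ligand level was 597 and 4395 FPKM in wild-type and 1079 and 1155 FPKM in the knockout-labelled libraries. Cxcl1 led in the first wild-type library with 30.1% of the sum, followed by Ccl2 with 14.3%. Ccl8 led in the second with 42.2%, followed by Ccl7 with 9.40%. In both knockout-labelled libraries Ccl5 led with 26.7% and 28.2%, followed by Xcl1 with 12.8% in each. The summed receptor level was 8.005 and 64.6 FPKM in wild-type and 211 and 198 FPKM in the knockout-labelled libraries. Ccr1 was the leading receptor in both wild-type libraries, with 34.5% and 55.2%.

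**Figure D5:**
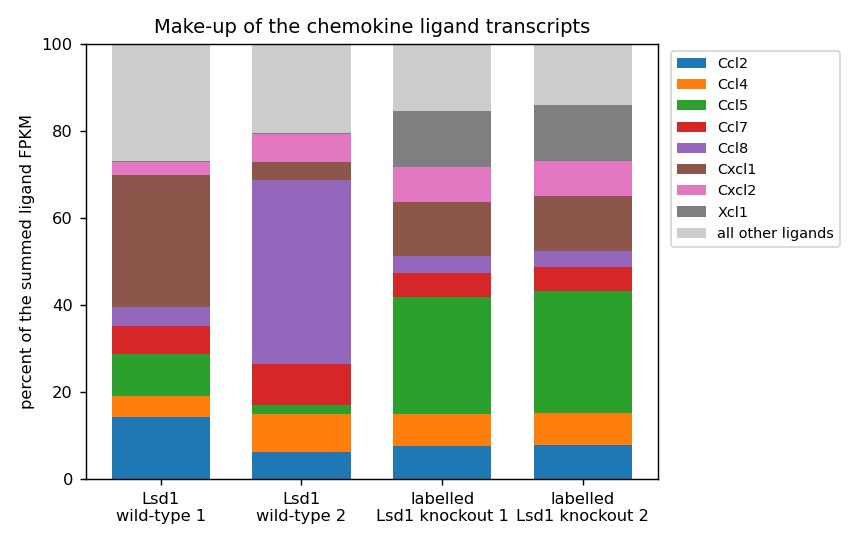
Share of each library's summed ligand FPKM held by the 8 ligands that ranked among the top 5 in any library, in percent, with all other ligands in grey. Ccl8 takes 42.2% of the second wild-type library, and Ccl5 26.7% and 28.2% of the knockout-labelled libraries.

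Ligands and receptors known to bind each other were set side by side. Of 20 listed pairs, both partners were tested in 14. In 9 of these the receptor difference was positive and the ligand difference negative, in 4 both were positive, and in the remaining pair, Cx3cl1 and Cx3cr1, both were negative. Ccl1 with Ccr8 was the single pair in which both partners passed. Among the 9 were Cxcl16 with Cxcr6 (-1.93 and 4.74), Cxcl12 with Cxcr4 (-0.84 and 2.22), Cxcl9 with Cxcr3 (-1.98 and 2.51), Ccl2 with Ccr2 (-0.83 and 2.17) and Ccl25 with Ccr9 (-0.71 and 1.42). Genes recur in several pairs, so the pairs are not independent. All 10 tested receptors had a positive difference and 21 of 29 tested ligands a negative one. Opposite signs would therefore be common in any pairing, and the counts do not speak to the listed pairs. The list is not complete, since it leaves out Ccl5 with Ccr1.

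Many members lie next to relatives in the genome, and their calls are given by cluster, beside the 16.5% of all tested genes that passed in either direction. Members were placed with RefSeq on GRCm38.p6, used here for gene order alone, and genes with starts at most 500000 bases apart were taken as 1 cluster. In the cluster of Ccl2, Ccl7, Ccl11, Ccl12, Ccl8 and Ccl1, only Ccl1 passed. Of Ccl5, Ccl9, Ccl6, Ccl3 and Ccl4, Ccl5 alone passed. In the receptor cluster Ccr9, Cxcr6, Ccr1, Ccr3 and Ccr2, the first 2 rose, Ccr3 was not tested, and Ccr1 and Ccr2 did not pass. Of Ccl27a, Ccl21b, Ccl27b, Ccl19 and Ccl21a, Ccl27a fell, Ccl21b and Ccl19 were not tested, and the others did not pass. No tested member passed in the clusters of Cxcl5, Cxcl3, Cxcl15, Cxcl1 and Cxcl2, of Cxcl9, Cxcl10 and Cxcl11, or of Ccl22, Cx3cl1 and Ccl17. Ccl26 and Ccl24, also a cluster, were not tested.

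Other genes of chemokine sensing were taken from a list of ligands, atypical receptors, signalling and motility genes. Of its 39 tested members 4 rose, 2 fell and 33 did not pass. The shares of 10.3% and 5.13% were near the 9.51% and 6.99% over all genes. The list had a median log2 difference of 0.996 versus 0.08 over all genes. With no filter on low values 0 of them passed, with 9 higher and 4 lower at an unadjusted p under 0.05. The receptor kinase gene Grk6, whose product desensitises receptors, was at 6.69 and 10.7 FPKM in wild-type, compared with 73.8 and 76.7 FPKM in the knockout-labelled libraries (log2 difference 3.01, SE 0.28; limma, adjusted p = 0.0243). Adrbk1, which encodes the related kinase GRK2, rose by 1.85 (adjusted p = 0.0491). Dpp4, a peptidase that trims chemokines and is also a T cell surface protein (CD26), was at 1.42 and 0.806 FPKM in wild-type, compared with 12.2 and 14.4 FPKM in the knockout-labelled libraries (adjusted p = 0.0243). Ptk2b, the focal adhesion kinase relative PYK2, rose by 1.96 (adjusted p = 0.0487).

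Of 3 tested atypical receptors, which bind chemokines without G protein signalling, 2 fell. Ackr1, a chemokine-binding protein of venules and red cells, fell from 4.88 and 7.18 FPKM to 1.36 and 0.937 FPKM (log2 difference -1.70, SE 0.29; limma, adjusted p = 0.0396). Ackr3, the scavenging receptor for Cxcl12, fell from 4.73 and 4.41 FPKM to 1.30 and 1.40 FPKM (log2 difference -1.24, SE 0.21; limma, adjusted p = 0.0389). With the replicate number as a block the calls of Ackr1 (adjusted p = 0.0690), Ackr3 (0.0909), Adrbk1 (0.0574) and Ptk2b (0.0555) ended, and none of the 6 pathway calls held without either knockout-labelled library. Endothelial markers (Pecam1, Cdh5, Kdr, Emcn, Flt1 and Tek) summed to 30.2 and 173 FPKM in wild-type and to 21.9 and 21.2 FPKM in the knockout-labelled libraries. Pecam1 held most of the latter sums, at 5.78 and 42.8 FPKM in wild-type versus 17.5 and 16.6 FPKM. The other markers of this list were lower in both knockout-labelled libraries than in either wild-type library, with Emcn at 19.8 and 100 versus 2.92 and 3.34 FPKM. Cx3cr1, the fractalkine receptor, was at 0.0851 and 12.7 FPKM in wild-type versus 1.47 and 1.69 FPKM, highest in the second wild-type library. Of the most abundant genes of the list, Mif was at 460 and 340 FPKM in wild-type, compared with 417 and 428 FPKM in the knockout-labelled libraries, Coro1a at 11.1 and 151 versus 600 and 578 FPKM, Rgs1, an inhibitor of G protein signalling, at 14.0 and 345 versus 279 and 315 FPKM, and Gnai2 at 117 and 263 versus 222 and 203 FPKM.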

How the data were processed

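RNA of 4 libraries was made with a low-input Clontech SMARTer kit, per the labels' protocols. The deposited table gives FPKM, scaled by the authors for length and library total. This unit was inferred from the values, as the header gives none. Totals of 401786 to 449838 differ between libraries, and 50.4 to 60.4% of values under 0.1 FPKM differed between libraries by ratios of integers no larger than 6 (tolerance 0.2%). With the second knockout-labelled library as 1, these steps gave a relative depth of 1.03 and 0.850 in wild-type, and of 0.928 in the remaining library. Absolute depth is unknown, so no intervals are given for counts. Per the submitters' processing notes the build was mm9. Aligner: not given in the sources used here. Between 0 and 4 genes per library had a 0 against 20 FPKM or more in each of the other 3, so a value of 0 is given as listed.

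After removal of 92 spike-in rows, all at 0, 11138 genes at 1 FPKM or more in at least 2 libraries entered a limma fit (version 3.58.1, R 4.3.3) of log2(FPKM + 1) on the genotype label, with trended and robust variance moderation; p-values were adjusted by Benjamini-Hochberg over all genes (threshold 0.05). This scale understates changes of low genes. Simulated data were used to check the code. An exact permutation test of 2 against 2 libraries cannot go below 0.333. Members named in full passed the test, reached a group mean of 10 FPKM, or had non-overlapping groups with a log2 difference of at least 2; further members are named by class, pair or pathway role. Members and lists were chosen with earlier results of these data known, and the marker ratios, motifs and printed promoters after the values were seen. In the pathway list, genes under older symbols (Adrbk1, Adrbk2) were used as the table gives them. Promoter entries were found for 38 of 52 members. Of the rows the rule took, 1 is not reported here, nor is 1 B cell marker.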

Additional observations from a re-analysis of the deposited data

How the results depend on the processing

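Calls over all genes numbered 1059 higher and 778 lower, against 2 and 0 with no filter on low values (limma; 2760 and 2303 at an unadjusted p under 0.05), and 346 and 155 with the replicate number as a block. With no filter 0 ligands and 0 receptors passed in either direction, as did 0 pathway genes, and the smallest adjusted p over the members was 0.0546. The block left 0 ligands and 0 pathway genes lower and ended the calls of Ccl27a and Ccr4 among the members. The numbers pair no samples in the labels, and deviations of same-numbered libraries correlated at -0.0619. With a filter at 5 FPKM 3 ligands fell and 0 pathway genes fell; the fallen pathway genes lie below that filter. Quantile normalization gave 2 ligands lower and 2 pathway genes higher, and turned Ccl9 from 0.05 to -0.051. A pseudocount of 0.1 gave 2 pathway genes higher and a receptor median of 4.01. The cause of these changes was not tested. Rescaling to a common total kept all 30 named members on their side of the threshold.

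Leaving out 1 library moved most counts, and the lone library of a group is then assumed to vary like the other group. Counts ran from 0 to 4269 for all genes higher, 0 to 3643 for all genes lower, 0 to 12 for ligands higher, 0 to 22 for ligands lower, 0 to 10 for receptors higher, 0 to 1 for receptors lower, 0 to 30 for pathway genes higher and 0 to 13 for pathway genes lower. Without either knockout-labelled library 0 genes passed (746 to 788 higher and 597 to 600 lower at an unadjusted p under 0.05), and the smallest adjusted p over the members was 0.357 and 0.360. The ligand median ran from -1.51 to 0.20, the receptor median from 1.51 to 3.33 and Kdm1a from -1.25 to -0.087. Differences that changed sign ran from -4.29 to 0.33 for Ccl12, from -1.68 to 0.017 for Ccl2, from -2.18 to 1.70 for Ccl3, from -2.19 to 1.47 for Ccl4, from -1.78 to 2.08 for Ccl6, from -2.72 to 0.67 for Ccl7, from -5.41 to 0.69 for Ccl8, from -1.57 to 1.68 for Ccl9, from -1.29 to 2.00 for Ccr1, from -1.64 to 2.25 for Cxcl2 and from -1.51 to 0.20 for Cxcl3.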
